A study of Mus musculus with 9 samples.

Results

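The OAS family genes described here are Oas1a, Oas1b, Oas1c, Oas1g, Oas2, Oas3, Oasl1 and Oasl2, which are 8 of the 47937 genes in a count table of RNA sequencing from mouse embryonic fibroblasts (MEFs). They were found by their Ensembl identifiers, and the set was chosen by its measured differences between mutant and WT libraries, so its own differences, and the counts of members past the call limits, are given as a description and not as evidence from a test. The library groups were WT, S1S2 (Suv39h1 and Suv39h2 knockout) and G9Gl (G9a and Glp knockout), with 3 libraries each. All of them derive from the same MEF clone, which carries a conditional, tamoxifen-deletable allele of the H3K9 methyltransferase gene Eset1 and is the line called WT. S1S2 and G9Gl are each a single clone obtained from it with Cas9 and guide RNAs, so the effect of a genotype and that of a clone cannot be told apart. The study's methods call the 3 libraries of a cell line biological replicates, and p-values measure the spread between samples of the same clone.

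OAS enzymes are antiviral sensors of double-stranded RNA. Once bound to it, Oas1a, Oas1g, Oas2 and Oas3 join ATP into short 2-5A chains, which act as a second messenger of the antiviral response. The Oasl proteins carry ubiquitin-like domains and act partly outside 2-5A synthesis: Oasl1 is known as an inhibitor of Irf7 translation. Nearly all family members are induced by interferon through the ISGF3 complex, which contains Stat2 and Irf9 and binds interferon-stimulated response elements (ISREs) in promoters. The deleted KMTs add methyl groups to H3K9, Suv39h1 and Suv39h2 mainly in constitutive heterochromatin and G9a and Glp mainly in euchromatin.

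The libraries held between 21319778 and 32157623 counts in genes, and 3 counts corresponded to between 0.0923 and 0.141 CPM, the usual depth-scaled count, taken here as the floor of detection for counting error only. Suv39h1 RNA was between 103 and 113 CPM in WT and between 38.3 and 44.2 CPM in S1S2, whereas Suv39h2 RNA was between 33.2 and 34.4 CPM in WT and between 52.7 and 57.4 CPM in S1S2. In G9Gl, Ehmt2 (encoding G9a) was between 51.9 and 57.4 CPM against 114 to 132 CPM in WT, and Ehmt1 (encoding Glp) between 48.6 and 51.8 CPM against 102 to 106 CPM. Total RNA of a gene with a small Cas9 lesion does not measure the lesion. A gene was called where it differed by 2-fold or more and its adjusted p in edgeR's quasi-likelihood test did not exceed 0.01. Fibroblast markers were above the floor in every library, 12 of 12, but 5 of them were called lower in S1S2 than in WT, beside 4.34% of the 15540 genes tested, among them Col3a1 and Col1a2 with log2 values of -3.01 and -2.60. In G9Gl 2 were called lower, Pdgfra and Pdgfrb, beside 3.40% of tested genes, and Thy1 was called higher by 2.94. The haematopoietic markers Adgre1, Tyrobp and Cd3e had 0 counts in all 9 libraries, while Csf1r had 3, 10 and 8 counts in G9Gl against 1 in each WT library and Ptprc 2, 2 and 4 against 0. The summed level of the fibroblast markers was between 12491 and 14169 CPM in WT, 9581 and 9662 in S1S2 and 10499 and 11477 in G9Gl. The summed level of 9 haematopoietic markers was between 4.99 and 5.11 CPM in WT, 3.50 and 4.96 in S1S2 and 4.99 and 5.30 in G9Gl, and Cd68 made up most of it, with a mean of 4.36, 3.53 and 4.40 CPM.

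Both mutants had more RNA of every member than WT. By the criterion for a call, 8 of 8 members were called higher in S1S2 than in WT, where 4.66% of the 15540 genes tested were, and 8 of 8 were called higher in G9Gl, where 6.77% were. The lowest mutant library lay above the highest WT library for 8 of 8 members in either mutant, and the libraries likewise did not overlap for 56.0% of all tested genes between S1S2 and WT and for 52.8% between G9Gl and WT. Because the members were chosen on these contrasts, nothing is read from these shares.

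**Figure D1:**
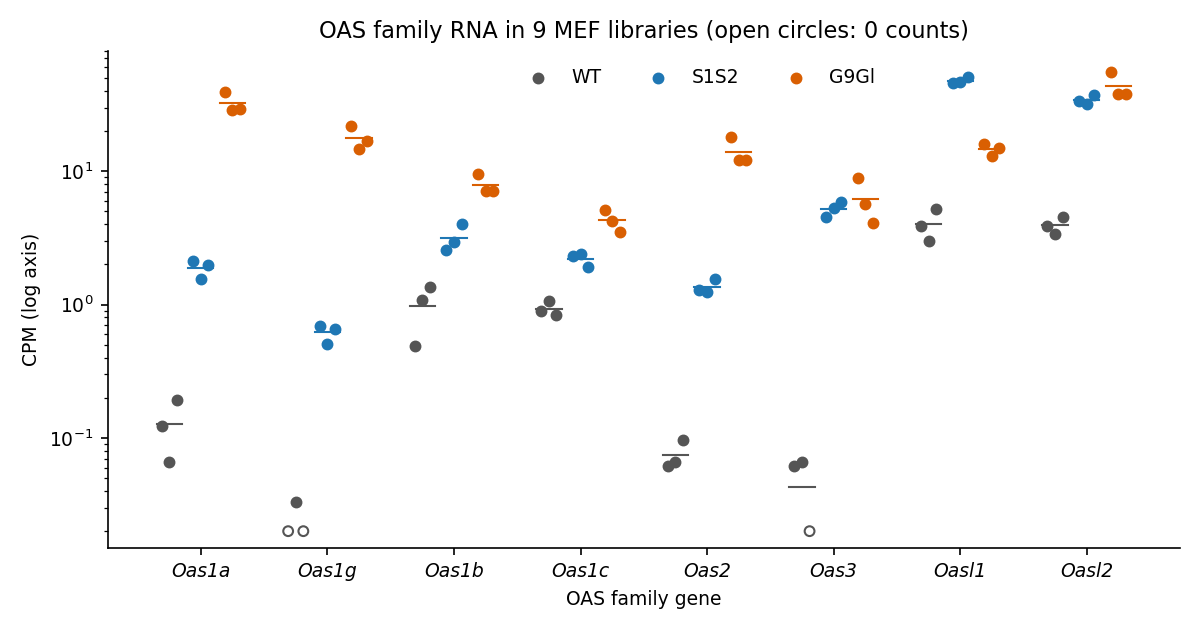
Level of each OAS family gene (CPM, log axis) in the 9 libraries, with points for libraries, short lines for group means of 3 and open circles at the lower edge for libraries with 0 counts. All mutant points sit above the WT points of the same gene, the G9Gl points are far above the S1S2 points for Oas1a, Oas1g and Oas2, and the order is turned for Oasl1.

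Members did not reach the same levels in S1S2 and G9Gl. Directly compared, 4 of 8 members were called higher in G9Gl than in S1S2 (Oas1a, Oas1g, Oas2 and Oas1b) beside 7.97% of all tested genes, and 1 of 8, Oasl1, was called lower beside 5.08% of them. Oas1c, Oas3 and Oasl2 were not called. For 7 of 8 members the libraries of the mutants did not overlap, beside 60.8% of tested genes, and Oas3 was the member with overlap. The log2 difference between the mutants ran from 4.86 in Oas1g to -1.69 in Oasl1. These counts too describe values on which the members were chosen, and nothing is read from them. The G9Gl and S1S2 comparisons share the WT libraries.

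Oas1a and Oas1g, the synthetase genes near the distal end of the cluster, were almost silent in WT. Oas1a had 4, 2 and 6 counts in the WT libraries, 46, 43 and 42 in S1S2 and 1111, 802 and 904 in G9Gl. The groups did not overlap, and each mutant library lay several times above every WT library. As levels these were 0.128 ± 0.0637 CPM in WT (SD, n = 3), 1.89 ± 0.284 CPM in S1S2 and 32.4 ± 5.69 CPM in G9Gl. The log2 fold change was 3.82 ± 0.30 (SE) for S1S2 and 7.94 ± 0.31 for G9Gl against WT. Here and below, the SE of a log2 value comes from the spread of log2 CPM between libraries and not from the fit. Oas1g had 0, 1 and 0 counts in WT, 15, 14 and 14 in S1S2 and 624, 409 and 519 in G9Gl. With a single WT count in all, the ratio of counts per depth was 57.2 for S1S2, with an exact 95% counting interval of 9.74 to 2313, and 1674 for G9Gl, with an interval of 299.9 to 66144. Between the mutants, where both have counts, Oas1g was 29.2 times higher in G9Gl (interval 21.6 to 40.6) and Oas1a 17.4 times higher (14.6 to 20.9). Counting intervals, here and below, pool the libraries of a group and leave out the spread between them.

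The sequences of Oas1a and Oas1g are close enough that reads can be shared between them. Of all stretches of 75 bases in the Oas1a transcripts, 47.6% occur in Oas1g transcripts as well, and 36.9% of those of Oas1g occur in Oas1a, so how the counting split such reads bears on the division between them. With their counts summed, the pair had a log2 fold change of 4.12 in S1S2 and 8.46 in G9Gl against WT, and 4.34 between the mutants. The summed values hold for the pair only, and the separate values of Oas1a and Oas1g depend on how shared reads were counted. No other member shared more than 6.75% of its 75-base stretches with another gene, and that value belonged to Oas1c and mostly to its antisense transcript Gm43069, which had at most 2 counts in any library.

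The proximal promoters of Oas1a and Oas1g are printed because the pair changed most between the mutants and both carry the same ISRE-like stretch next to the start site. The sequences are RefSeq's for GRCm38.p6 in the 5′ to 3′ direction of the gene, and capitals mark overlapping matches to GAAANNGAAA, searched on both strands from 250 bases before to 50 bases after the start. The Oas1a stretch is at chr5:120907526-120907575 and that of Oas1g at chr5:120887614-120887661, both on the minus strand.
Oas1a: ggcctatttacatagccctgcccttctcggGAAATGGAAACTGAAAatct
Oas1g: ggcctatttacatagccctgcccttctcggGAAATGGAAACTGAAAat
The first of the 2 matches starts at position -20 in Oas1a and -18 in Oas1g. The motif occurs in 3.44% of 32851 RefSeq promoters of this length. Counted per gene, with a match in any promoter of the gene, it occurs in 3.99% of 27025 genes, in 8 of the 16 interferon-stimulated genes with a promoter in the table and in 4 of the 6 OAS members with one.

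Oas1b and Oas1c, which lie side by side in the middle of the cluster, differed least from WT in S1S2. Oas1b is a polymorphic pseudogene in the annotation, as many laboratory strains carry a truncated copy, and it is known as the flavivirus resistance gene. It had 16, 33 and 42 counts in WT, 56, 81 and 85 in S1S2 and 271, 198 and 218 in G9Gl, with log2 fold changes of 1.70 ± 0.45 and 3.02 ± 0.43. The groups did not overlap, but the WT libraries differed among themselves by 2.75 times in level, which is the widest ratio between WT libraries among members with over 10 counts in each. Oas1c had 29, 32 and 26 counts in WT, 50, 66 and 41 in S1S2 and 145, 118 and 108 in G9Gl. Its log2 fold changes of 1.26 ± 0.13 and 2.20 ± 0.18 were the smallest in S1S2 and the second smallest in G9Gl.

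Oas1c also carries the motif, as a pair of matches on the opposite strand and farther from its start site, with the first at position -114. Its capitals are the reverse complement of the stretch in Oas1a and Oas1g, which is why it is shown at chr5:120812583-120812658, again in the direction of the gene.
Oas1c: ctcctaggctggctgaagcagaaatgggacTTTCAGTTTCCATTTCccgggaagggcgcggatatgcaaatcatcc
The annotated start of Oas1b, at chr5:120812635 on the plus strand, lies within the printed stretch, so the motif lies upstream of both genes. It is closer to the start of Oas1b, and in the direction of Oas1b it reads as in Oas1a and Oas1g. The same 16 bases of motif thus stood beside log2 fold changes in G9Gl of 2.20 in Oas1c, 3.02 in Oas1b and 7.94 in Oas1a. Which gene the motif acts on was not tested.

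Oas2 and Oas3 encode larger synthetases made of repeated OAS units, and Oas3 is known to respond to low amounts of long double-stranded RNA. Oas2 had 2, 2 and 3 counts in WT, 28, 34 and 33 in S1S2 and 512, 337 and 369 in G9Gl. It followed Oas1a. The ratio of counts per depth against WT was 18.1 for S1S2 (exact 95% counting interval 8.44 to 46.1) and 188 for G9Gl (90.8 to 468). Between the mutants Oas2 was 10.4 times higher in G9Gl, with a counting interval of 8.42 to 12.9.

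Oas3 behaved otherwise, although its gene lies next to Oas2. It had 2, 2 and 0 counts in WT, 99, 145 and 124 in S1S2 and 253, 157 and 125 in G9Gl. The S1S2 and G9Gl libraries overlapped, at 4.55 to 5.83 CPM and 4.08 to 8.88 CPM. The ratio to WT was 122 in S1S2 (exact 95% counting interval 47.4 to 452) and 144 in G9Gl (56.0 to 531). The log2 difference between the mutants was 0.24 ± 0.34 and fell to -0.11 without G9Gl replicate 1. The fitted log2 fold change of Oas3 was 6.79 ± 0.32 in S1S2 and 7.04 ± 0.44 in G9Gl, and its count interval in S1S2 lies within that of Oas1g, so their order there is not settled. Where WT has so few counts, fitted values depend on the small count that the fit adds, and their SEs do not carry the full counting error. The count ratios are the plainer measure. The promoter of Oas3 has one match to the motif, at position -75, within chr5:120777695-120777764 on the minus strand.
Oas3: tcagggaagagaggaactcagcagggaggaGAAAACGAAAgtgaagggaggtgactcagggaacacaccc

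Oasl1 was the single member with a higher level in S1S2 than in G9Gl. It had 127, 90 and 162 counts in WT, 995, 1281 and 1072 in S1S2 and 455, 365 and 461 in G9Gl. Its level was 47.6 ± 2.47 CPM in S1S2 (SD, n = 3) and 14.7 ± 1.46 CPM in G9Gl, against 4.03 ± 1.13 CPM in WT. The log2 fold change was 3.56 ± 0.23 for S1S2 and 1.86 ± 0.24 for G9Gl against WT, and -1.69 ± 0.09 for G9Gl against S1S2. Its exons overlap those of an antisense gene, Gm13822, which had at most 5 counts in any library.

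Oasl2, which adjoins Oasl1 and is transcribed in the same direction, did not share that order. It had 126, 103 and 141 counts in WT, 733, 868 and 787 in S1S2 and 1566, 1052 and 1164 in G9Gl, and G9Gl lay above S1S2 by a log2 value of 0.36 ± 0.19. The libraries did not overlap, but the nearest were 37.8 CPM in G9Gl and 37.0 CPM in S1S2, and the log2 value was 0.15 without G9Gl replicate 1. Against WT, its log2 fold change was 3.11 ± 0.14 in S1S2 and 3.46 ± 0.21 in G9Gl. Neither Oasl1 nor Oasl2 has a match to GAAANNGAAA in its promoter window, which says only that these letters are not in it. Oas1b and Oas2 have no entry in the promoter table.

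**Figure D2:**
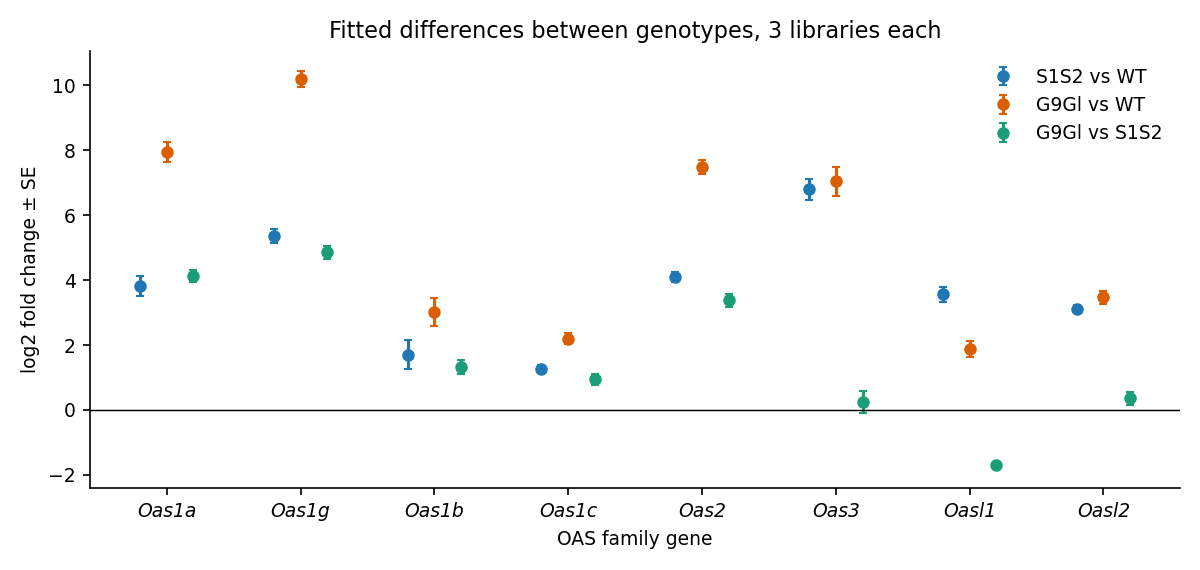
Fitted log2 fold change with its SE for each member in the comparisons of the 3 genotypes, 3 libraries each. The G9Gl against S1S2 points run from 4.86 in Oas1g to -1.69 in Oasl1 and lie near 0 in Oas3 and Oasl2, and the values against WT of Oas1g, Oas2 and Oas3 rest on 3 or fewer WT counts per library.

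Levels can be compared between genes only per length, so CPM was divided by the exon length of each gene in kilobases (RPKM). The summed level of the 8 members was 3.14 ± 0.632 RPKM in WT (SD, n = 3), 28.4 ± 1.75 in S1S2 and 47.1 ± 8.59 in G9Gl. Its makeup changed with the genotype. Oasl1 made up 48.9% of the sum in WT, 64.2% in S1S2 and 12.1% in G9Gl, on average over libraries. Oas1a made up 2.09%, 3.52% and 36.6% and Oas1g 0.172%, 0.931% and 16.2%. Oasl2 stayed between 13.9% and 21.6% in every library. Per unit of length, most of the family's RNA in G9Gl came from Oas1a and Oas1g, whereas in WT and S1S2 it came from the Oasl genes. In CPM, which is not divided by length, Oasl2 was the highest member in G9Gl, at a mean of 43.6 against 32.4 for Oas1a.

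The order of per-length levels differed accordingly. In WT it was Oasl1 (1.55 RPKM), Oasl2 (0.618), Oas1b (0.491), Oas1c (0.386) and Oas1a (0.0676), with the ranges over libraries of Oasl2 and Oas1b, and of Oas1b and Oas1c, overlapping and Oas2, Oas3 and Oas1g at 3 counts or fewer. In S1S2 it was Oasl1 (18.3 RPKM), Oasl2 (5.35), Oas1b (1.59), Oas1a (1.00), Oas1c (0.919), Oas3 (0.739), Oas2 (0.305) and Oas1g (0.265), where Oas1a and Oas1c, Oas1c and Oas3, and Oas2 and Oas1g overlapped in range. In G9Gl it was Oas1a (17.2 RPKM), Oas1g (7.63), Oasl2 (6.84), Oasl1 (5.64), Oas1b (3.97), Oas2 (3.15), Oas1c (1.78) and Oas3 (0.877), where Oas1g and Oasl2, Oasl2 and Oasl1, and Oas1b and Oas2 overlapped. Oas3 was thus the least abundant member per length in G9Gl despite its fold change.

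**Figure D3:**
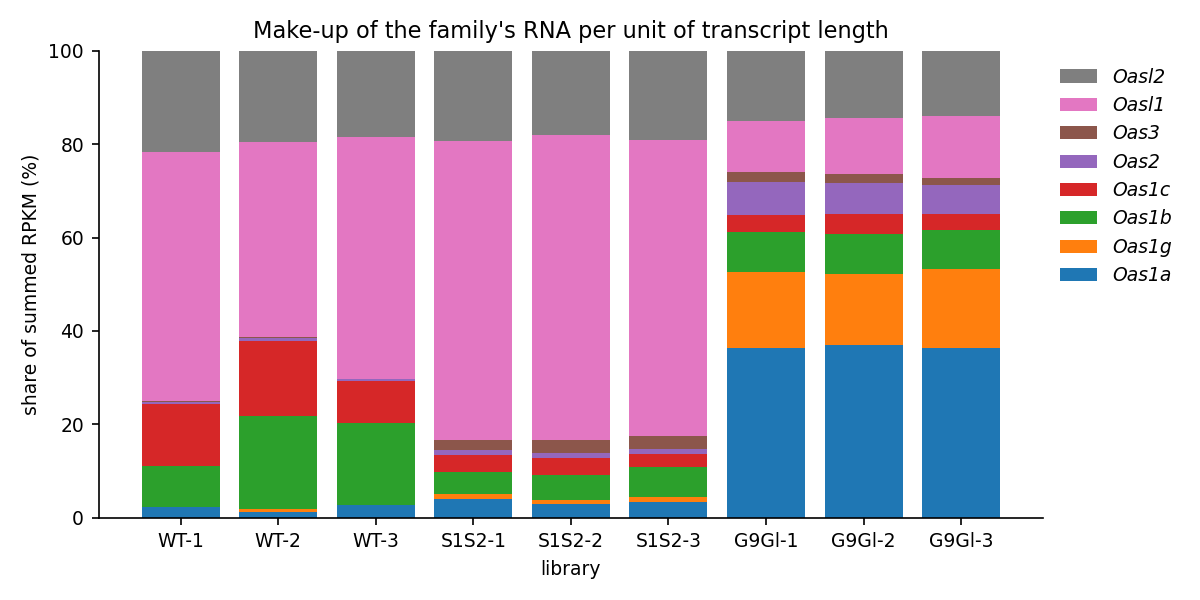
Share of each member in the summed RPKM of the 8 OAS family genes (stacked to 100%) in each library. Oasl1 fills the largest part of every WT and S1S2 bar, and Oas1a with Oas1g fills more than Oasl1 and Oasl2 together in the 3 G9Gl bars.

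The increase in G9Gl was uneven between its libraries. G9Gl replicate 1 had the highest level of the 3 for 8 of 8 members, against 35.2% of all tested genes. The same library was highest for 19 of 20 interferon-stimulated genes of a list described below. Without it, the log2 fold change of G9Gl against WT was 7.78 for Oas1a, 2.06 for Oas1c and 3.26 for Oasl2, and the calls of members were the same ones. In S1S2, replicate 3 was highest for 5 of 8 members and 16 of 20 interferon-stimulated genes, against 36.4% of all tested genes, and in WT replicate 3 was highest for 5 of 8 and 11 of 20, against 39.5%. What sets these libraries apart was not tested.

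The remaining Oas1 paralogs were not detected. Oas1d, Oas1e, Oas1f and Oas1h lie in the same cluster as Oas1a, and Oas1h had 0 counts in all libraries. Oas1d, Oas1e and Oas1f had counts in single G9Gl libraries, at 1, 1 and 2, which is below the floor. The higher RNA in the mutants was therefore detectable for 6 of the 10 genes of the Oas cluster and both Oasl genes at this depth.

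The family occupies a pair of sites on chromosome 5. Oasl2 and Oasl1 lie at chr5:114896936-114937915, and the cluster from Oas2 to Oas1d lies at chr5:120730333-120921652 (GRCm38). The annotation has 43 genes outside the family within 200 kb of a member, of which 17 were tested. By edgeR's quasi-likelihood test none of the 17 was called in S1S2, in G9Gl or between the mutants (0, 0 and 0), DESeq2 gave 0 in each as well, and 9, 6 and 9 of them had an unadjusted p under 0.05. Among all tested genes 4.66%, 6.77% and 7.97% were called higher and 4.34%, 3.40% and 5.08% lower, and 0 of 17 is read as no result about the neighbours. Without the fold limit, 6 of the 17 passed the adjusted p limit as higher and 0 as lower in S1S2 than in WT, beside 20.3% and 17.6% of all tested genes. For G9Gl against WT 1 was higher and 1 lower, beside 19.0% and 16.0%, and for G9Gl against S1S2 0 were higher and 7 lower, beside 21.6% and 21.1%. 2210016L21Rik, which starts 4.24 kb past Oasl1, had log2 fold changes of 0.04 in S1S2 and 0.11 in G9Gl. The nearest protein-coding genes outside the family on the other sides had hardly any counts in any library, with at most 2 in 4930519G04Rik near Oasl2, 1 in Dtx1 near Oas2 and 0 in Rph3a near Oas1a.

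**Figure D4:**
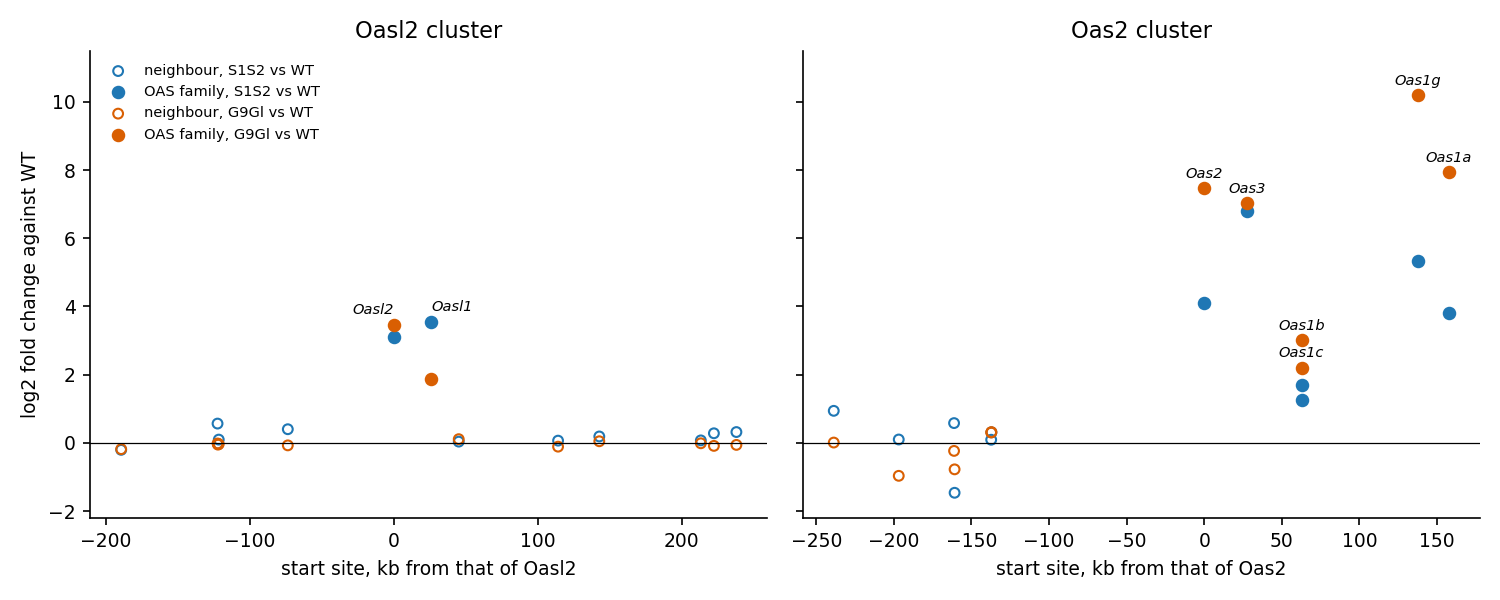
Fitted log2 fold change against WT (vertical axis) by distance of the start site in kb from that of Oasl2 (left) or Oas2 (right), with filled points for OAS family genes and open points for tested neighbours within 200 kb. Members stand at 1.26 or more, while the neighbours lie between -1.46 and 0.94 and none was called.

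Genes that act on 2-5A or downstream of it were not called in any comparison. Of the 3 examined, 0 were called in S1S2, in G9Gl or between the mutants by edgeR and by DESeq2, although 1, 1 and 2 had an unadjusted p under 0.05 in edgeR's test. By edgeR, 4.66%, 6.77% and 7.97% of all tested genes were called higher and 4.34%, 3.40% and 5.08% lower. The 0 of 3 is therefore read as no result about these genes. Abce1, an ATP-binding protein known also for ribosome recycling, had a log2 fold change of -0.001 ± 0.033 in S1S2 and -0.06 ± 0.04 in G9Gl, and Pde12, which degrades 2-5A, had 0.15 ± 0.08 and -0.02 ± 0.07. Akap7, which has a 2-5A phosphodiesterase domain, had -0.20 ± 0.16 and 0.42 ± 0.11 (edgeR adjusted p = 0.154 and 0.00279). Between the mutants Akap7 differed by 0.62 ± 0.14 (adjusted p = 0.000112), which is under the fold limit.

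Upstream of the family, genes of double-stranded RNA sensing and interferon signalling were examined. The list of 42 genes, which also holds these 3, was chosen with earlier results of these data known, and 30 of its genes were tested. The test called 5 of them in S1S2, and in G9Gl it called 8, each time higher than in WT, beside 4.66% and 6.77% of all tested genes called higher. The median log2 fold change of the 30 was 0.30 in S1S2 and 0.38 in G9Gl, beside -0.003 and -0.007 over all tested genes. Given how the list was chosen, nothing is read from these shares and medians. Among the 9 sensors and adaptors, Ifih1 (encoding MDA5) rose by a log2 value of 2.28 ± 0.06 in S1S2 and 2.67 ± 0.09 in G9Gl (edgeR adjusted p = 7.64e-14 and 4.78e-15). Zbp1 was called in both mutants as well, and Ddx58, Dhx58 and Tlr3 in G9Gl alone, where the difference between the mutants was called for Dhx58 (log2 difference 1.33) and Tlr3 (1.38) and not for Ddx58.

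Of the interferon genes, 10 were examined and none was detected. The ligands Ifnb1, Ifna1, Ifna2, Ifna4, Ifna5, Ifne, Ifnk, Ifnl2, Ifnl3 and Ifng had at most 2 counts in any library, which is below the floor, and secreted protein was not measured. Of the 9 receptor and kinase genes, 8 were tested and 0 were called in S1S2, in G9Gl or between the mutants by edgeR and by DESeq2, although 8, 6 and 4 had an unadjusted p under 0.05. Of all tested genes, edgeR called 4.66%, 6.77% and 7.97% higher and 4.34%, 3.40% and 5.08% lower, and 0 of 8 is read as no result. The log2 fold changes of the 8 lay between -0.31 and 0.63 in S1S2 and between -0.33 and 0.75 in G9Gl. The largest were those of Ifngr2 (0.63 ± 0.06) and Jak2 (0.59 ± 0.09) in S1S2 and Ifngr1 (0.75 ± 0.05) in G9Gl, while Ifnar2, a chain of the type I interferon receptor, stood at -0.31 ± 0.09 and -0.33 ± 0.06.

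Of the 7 transcription factors tested, Irf7 rose in both mutants, by log2 values of 2.26 ± 0.25 in S1S2 and 3.65 ± 0.29 in G9Gl (edgeR adjusted p = 1.59e-07 and 5.31e-11), and more in G9Gl (difference 1.40 ± 0.24, adjusted p = 9.81e-07). Irf9, the DNA-binding part of ISGF3, was called in G9Gl (59.7 ± 8.14 CPM against 17.1 ± 1.23 CPM in WT; SD, n = 3) and between the mutants (1.21 ± 0.12), and had 0.58 ± 0.07 in S1S2. Irf5 was the opposite case. It rose in S1S2 (1.56 ± 0.07), had 0.37 ± 0.11 in G9Gl and was lower in G9Gl than in S1S2 by -1.19 ± 0.09 (edgeR adjusted p = 2.43e-07). Irf1 had 0.74 ± 0.05 and 0.38 ± 0.05 and was not called.

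Usp18, which is induced by interferon and blocks signalling from its receptor, had the largest change on the list. It rose from 0.182 ± 0.122 CPM in WT (SD, n = 3) to 3.69 ± 0.192 CPM in S1S2 and 23.0 ± 5.22 CPM in G9Gl, by log2 values of 4.32 ± 0.38 and 6.95 ± 0.42 (edgeR adjusted p = 1.27e-08 and 2.89e-13). Socs1 had 0.95 ± 0.24 and 0.57 ± 0.23 and Socs3 0.15 ± 0.08 and -0.44 ± 0.10, and neither was called.

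**Figure D5:**
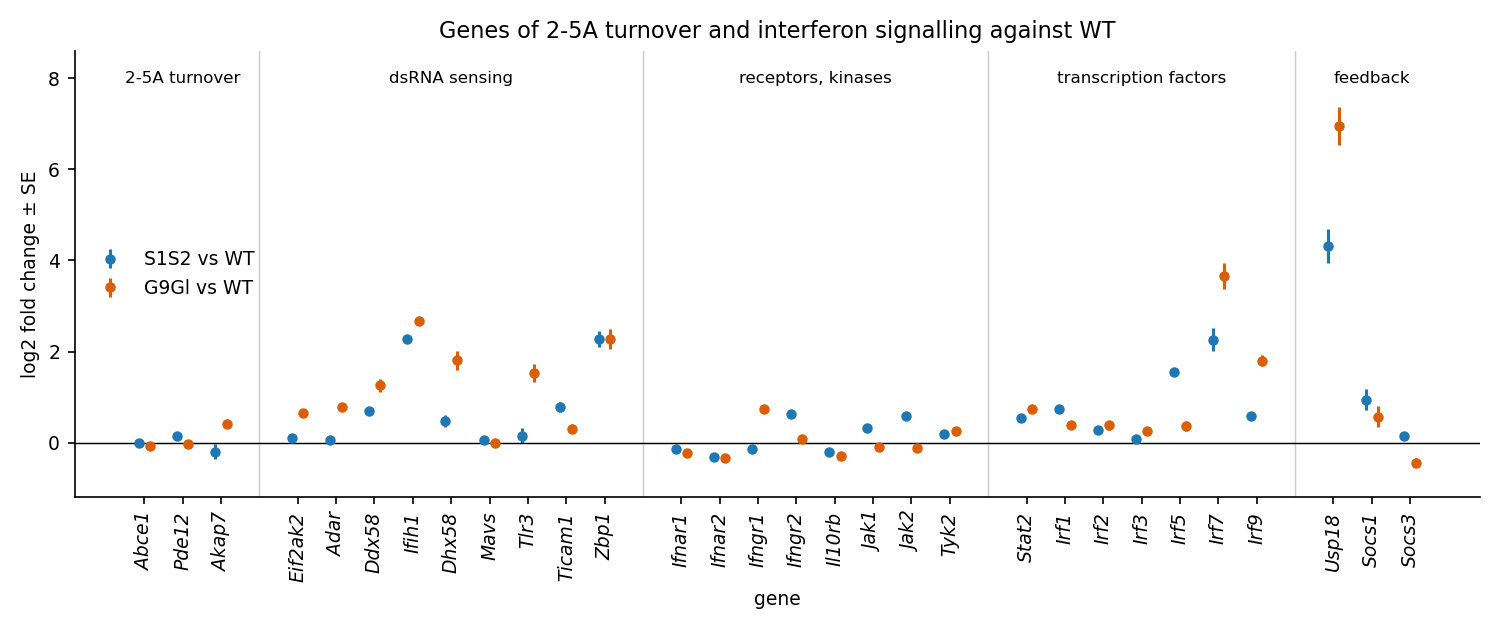
Log2 fold change with its SE against WT for the 30 tested genes of 2-5A turnover, double-stranded RNA sensing, interferon receptors and kinases, transcription factors and feedback inhibitors. Usp18, Irf7, Ifih1 and Zbp1 stand above 1 in both mutants, and the receptor and kinase genes lie between -0.33 and 0.75.

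Most of a list of other interferon-stimulated genes were called higher in each mutant. Of 20 such genes, 13 were called higher and 0 lower in S1S2, with a median log2 fold change of 1.66, and 17 were called higher in G9Gl, with a median of 1.95. Over all tested genes, 4.66% and 6.77% were called higher. The list was chosen with earlier results of these data known, so nothing is read from these shares or those below. The remaining call in G9Gl was lower, in Samd9l, beside 3.40% of all tested genes called lower. Between the mutants, 5 were called higher in G9Gl and 5 lower, beside 7.97% and 5.08% of all tested genes. The split was 6 higher and 3 lower without G9Gl replicate 2 and 7 higher and 5 lower without G9Gl replicate 3. Rsad2 (encoding viperin) had the order of Oasl1, with 4.13 ± 0.06 in S1S2, 1.85 ± 0.14 in G9Gl and -2.29 ± 0.14 between them. Ifi44 and Xaf1 had the order of Oas1a, with 2.60 ± 0.48 and 2.02 ± 0.19 in S1S2 and 6.42 ± 0.49 and 4.14 ± 0.23 in G9Gl. Rtp4 lay near Oasl2, with 2.70 ± 0.11 and 3.32 ± 0.09. Low counts of single markers of other cell types differed as well. The sum of 6 endothelial markers was 0.123 to 0.193 CPM in WT, 1.55 to 1.75 in S1S2, where Kdr had 1.22, and 0.790 to 2.35 in G9Gl, where Cdh5 had 1.01, with Emcn at 0 throughout. The sum of 6 epithelial markers was 0.298 to 0.548 CPM, 4.70 to 5.60 in S1S2, where Krt8 had 4.68, and 4.21 to 5.39 in G9Gl, where Krt14 had 4.39, while Epcam went from 0.266 CPM in WT to 0.198 and 0.0683 and Krt5 was at 0. The part of these genes in the results on the OAS family was not tested.

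Likeness of pattern was measured as the root mean square difference, over the 9 libraries, of log2 CPM centred on the WT mean. Among the members, Oas1a and Oas1g were closest to each other, at 0.45, with no gene outside the family closer to either. Reads shared between them can add to this likeness. Oas2 was closest to Oas1a, at 0.51. Oasl1 was closest to Oasl2, but at 0.95, and 70 genes outside the family were closer to it. The most alike genes outside the family were Cxcl10 (0.31), Cacna1i (0.34) and Rsad2 (0.36) for Oasl1, and Rtp4 (0.30), Ifit3 (0.33) and Ifit3b (0.37) for Oasl2. Usp18 was among the 3 most alike genes of Oas1a (0.63), Oas2 (0.48) and Oas3 (1.19).

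For Oas1a the other alike genes were Rhox5 (0.81) and Naip2 (0.88), for Oas2 Rhox5 (0.37) and Blnk (0.58), and for Oas1g Trim30a (0.61), Vmn2r79 (0.85) and Pcdh1 (0.87). For Oas3, Sp100 was the closest, at 0.66, followed by Usp18 and Slc6a17 (1.32). Oas1c was closest to Srgap3 (0.13), Tap1 (0.19) and Serpinb9 (0.21), and Oas1b to Etl4, Ptprb and Abcb1a at 0.41 each. These distances describe 9 libraries that fall into 3 genotypes and are given without a test.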

How the data were processed

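The authors trimmed paired reads of stranded total RNA libraries and aligned them with STAR 2.5.2b to GRCm38, as the study's methods and the submitters' processing notes state, and deposited raw read counts per gene, which were used as deposited. The annotation release and the strand setting of the counting are not given in the sources used here. Of 47937 identifiers, 47310 were matched to GENCODE M21 for names and exon lengths. Counts were fitted in R 4.3.3 with edgeR 4.0.16 (TMM factors, filterByExpr, quasi-likelihood test with genotype as the single term, all 9 libraries) and p-values were adjusted by Benjamini-Hochberg over 15540 genes. DESeq2 1.42.0 was run as an alternative. The fit was run on simulated data in which only well-counted genes were changed. This does not cover members with few counts in WT, and nothing is read from it for them. All 8 members passed the filter. CPM used TMM-scaled library sizes and RPKM the union of exons. The members and lists were chosen with earlier results of these data known, and some genes are not reported here. Genes were named by a rule: all OAS genes, 2-5A turnover genes, the 4 genes with the largest change against WT in each other list, flanking genes, and the 3 genes most alike to each member. Named outside it, after their values were seen, were Ddx58, Samd9l, the neighbours called without a library and all genes named from the marker lists. The listed interferon genes, the deleted KMT genes and the antisense genes that overlap a member were also named outside the rule. The distance used for likeness took log2 CPM with a prior count of 2. The SEs of log2 fold changes were computed from the spread of the same log2 CPM between libraries, not from the fit. They do not carry the full counting error where WT has few counts. The common biological coefficient of variation was 5.36%, and replicate libraries differed by more than sampling noise (chi-square per degree of freedom from 2.59 to 24.5).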

Additional observations from a re-analysis of the deposited data

Results flagged for a closer look

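Samd9l, an interferon-stimulated antiviral gene, moved in opposite directions in the mutants, and it was picked out after its values were seen. It had 737, 693 and 847 counts in WT, 1415, 1931 and 1539 in S1S2 and 181, 182 and 205 in G9Gl. The groups did not overlap. Its log2 fold change was 1.51 ± 0.10 in S1S2 and -1.89 ± 0.09 in G9Gl against WT, and the difference between the mutants was -3.41 ± 0.05 (edgeR adjusted p = 7.45e-16). No OAS member was lower in a mutant than in WT.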

How the results depend on the processing

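Calls of members kept their number (8 for S1S2 and 8 for G9Gl against WT, 5 between the mutants) with DESeq2, with other scalings, without a filter, with only the groups compared and with a replicate block, and reached 6 between the mutants without S1S2 replicate 2 or G9Gl replicate 3, where Oas1c was added. Requiring 10 counts in every library left 4 members, called 4, 4 and 2 times, since the rest have fewer counts in WT. Leaving out a library gave 8 to 8, 8 to 8 and 5 to 6 calls of members. It gave 13 to 14, 17 to 19 and 9 to 12 calls of interferon-stimulated genes and 5 to 6, 8 to 8 and 6 to 6 of pathway genes. The fitted value of Oas1g rested on WT replicate 2, its single WT count: without it the log2 fold change was 7.09 instead of 5.35 in S1S2 and 11.95 instead of 10.20 in G9Gl.

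With an adjusted p of at most 0.05 and no fold limit, calls were 20, 25 and 21 among pathway genes, 20 and 18 among interferon-stimulated genes for S1S2 against WT and between the mutants, and 8, 3 and 9 among neighbours, and 8, 8 and 7 among members. At this limit 48.9%, 45.9% and 53.3% of all tested genes were called. Leaving out a library gave 0 to 1 called neighbours in each comparison: Slc8b1 in S1S2 without WT replicate 1 and 2510016D11Rik in G9Gl, against WT and against S1S2, without G9Gl replicate 2. Socs1 was called in S1S2 without WT replicate 2. Oas3, not called between the mutants, went from 0.24 to -0.11 without G9Gl replicate 1. The other values that changed sign were Abce1 in S1S2 (0.0013 with DESeq2 size factors, -0.029 to 0.016 without a library) and Pde12 in G9Gl (-0.077 to 0.041 without a library).

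Libraries of equal number did not deviate together (correlations of deviations from -0.0686 to 0.124 over 9 pairs, with 3 of 9 libraries closest to their own number), so they share only a number. As a block, it gave 14 instead of 13 and 11 instead of 10 calls of interferon-stimulated genes in S1S2 against WT and between the mutants, and all other counts were the same. Other scalings moved the median of all genes by at most 0.03.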
